A study of Danio rerio with 25 samples.

Results

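The 4 microRNAs described here are miR-143 and miR-145 (dre-mir-143 and dre-mir-145), known from the smooth muscle and pericytes of vessel walls, and miR-199 and miR-214 (dre-mir-199 and dre-mir-214), known from mesenchyme and connective tissue. They were chosen by name from 217 miRNAs in the table, with the age results of these data already known, in which miR-199 and miR-214 had declining slopes. Their values by age, and the comparison of the pairs, are therefore a description. Where a fit over all miRNAs called a member, the call stands beside the share of all tested miRNAs called, and it is not offered as a test of the members. The 4 names cover 7 hairpin entries, since miR-143 has 2 numbered copies and miR-199 has 3. All 4 passed the filter on low counts that kept 197 miRNAs.

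The samples are brains of male zebrafish of strain AB JxTü at 6, 12, 24, 36 and 42 months, with 5 small RNA libraries at each age and 25 in all. The fish of 6 and 24 months carry no named transgene, those of 12 months carry Tg(flk:mCherry), those of 36 months Tg(pu.1:GFP) and those of 42 months Tg(wt1a:GFP), so that line and age cannot be told apart, other than between the groups of 6 and 24 months. Each title holds its own number, or a pair of numbers for each library of 6 months, and no 2 libraries share one. The labels do not say what the numbers stand for. If they are fish, the libraries are of separate fish and those of 6 months are pools, and otherwise p-values measure only the spread between these libraries. Only the 6-month titles hold pairs, so possible pooling cannot be told apart from age in any comparison with 6 months, 24 months included. Total miRNA counts ran from 3983783 to 20924118 per library. The 5 neuronal miRNAs miR-9, miR-124, miR-128, miR-137 and miR-138, summed to between 117358 and 164197 CPM, the count scaled to a fixed library total, in every library, as a check of the labelled tissue.

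A miRNA is cut from a hairpin precursor and guides silencing proteins to messenger RNAs that match its seed. In mouse, miR-143 and miR-145 are made from a shared transcript and help smooth muscle cells keep their contractile state. miR-199 and miR-214 are also made from a shared transcript in mouse, read from the strand opposite the dynamin 3 gene, and are active in the mesenchyme of the developing skeleton. In the RefSeq annotation of zebrafish assembly GRCz12tu, which matched 5 of the 7 hairpin entries, miR-214 and the hairpin mir-199-1 are each other's nearest miRNA, while the hairpins mir-199-2 and mir-199-3 lie on other chromosomes than miR-214. The copies of miR-143 were not matched, and the nearest miRNA to miR-145 there is miR-194b. A shared place of miR-143 and miR-145 was therefore not shown.

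miR-143, which restrains growth of smooth muscle in mouse, was the most counted of the 4. Levels of the members and their hairpins are CPM after scaling by library size and a TMM normalization factor. The sums of lists are scaled by library total alone. A hairpin's count does not separate its arms. At 6 months the 5 libraries held 10483, 16072, 11195, 12554 and 12782 CPM. At 12 months they held 10383, 18768, 11305, 11484 and 12028 CPM. These ages covered nearly the same range, except that replicate 2 of 12 months stood above the rest. At 24 months the values were 16978, 11127, 15658, 12429.5 and 14668 CPM. At 36 months they were 10884, 14993, 13619.7, 12252 and 15302 CPM. At 42 months they were 11507, 11668, 12403, 11327 and 12479 CPM, the narrowest range of the 5 ages. The mean was 12617 ± 2153 CPM (SD, n = 5) at 6 months and 11877 ± 529.6 CPM at 42 months, and the libraries of these ages overlapped.

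miR-145, in mouse the partner of miR-143 and a promoter of the contractile state in smooth muscle, was counted much less often. At 6 months it stood at 151, 245, 137, 181 and 191 CPM. At 12 months it stood at 156, 205, 159.7, 147 and 174 CPM, and at 24 months at 204, 178, 211, 172 and 162 CPM. No age lay apart from another among these. At 36 months the values were 181, 209, 168, 158 and 184 CPM, and at 42 months they were 167, 193, 146, 142 and 182 CPM. The mean moved only between 166 ± 22.0 CPM at 42 months and 186 ± 21.0 CPM at 24 months (SD, n = 5 each). Levels of different miRNAs depend on how well each is captured in a small RNA library, so that the higher count of miR-143 is not a ratio of molecules.

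miR-199, a miRNA of mesenchymal cells, had its highest means and its largest SDs in CPM at 6 and 12 months. As a share of the mean, the SD was 49.1% at 6, 90.3% at 12 and 61.7% at 36 months. At 6 months the libraries held 2024, 3206, 817, 1217 and 2332 CPM. At 12 months they held 565, 876, 1253, 3767 and 822 CPM. Replicate 4 of 12 months was the highest of all 25 libraries, and the other 4 of that age lay below the 6-month median. At 24 months the values were 1054, 674, 519, 628 and 600.1 CPM. At 36 months they were 1782, 1075, 471, 590.3 and 547 CPM, with replicate 1 apart from the rest. At 42 months they were 539.6, 671, 638, 356 and 479 CPM, and all 5 lay below all 5 of 6 months. The mean was 1919 ± 942 CPM at 6 months and 1456 ± 1315 CPM at 12 months (SD, n = 5 each). It was 695 ± 209 CPM at 24 months, 893 ± 551 CPM at 36 months and 537 ± 127 CPM at 42 months.

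miR-214, encoded next to a miR-199 hairpin, followed the same order at a lower count. At 6 months it stood at 58.6, 98.9, 34.6, 41.2 and 73.6 CPM. At 12 months it stood at 17.0, 20.6, 38.9, 101.7 and 24.1 CPM, with the same replicate 4 on top. At 24 months the values were 34.2, 22.0, 19.2, 22.1 and 18.4 CPM. These lay below every 6-month library, the highest of them only just. At 36 months they were 47.0, 29.1, 15.5, 16.0 and 16.5 CPM. At 42 months they were 19.8, 25.0, 18.0, 13.2 and 15.9 CPM, again below every 6-month library. The mean was 61.4 ± 25.9 CPM at 6 months and 18.4 ± 4.45 CPM at 42 months (SD, n = 5 each). Its lowest count in a library was 86, with a 95% exact Poisson interval of 68.8 to 106 that covers counting error only.

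**Figure D1:**
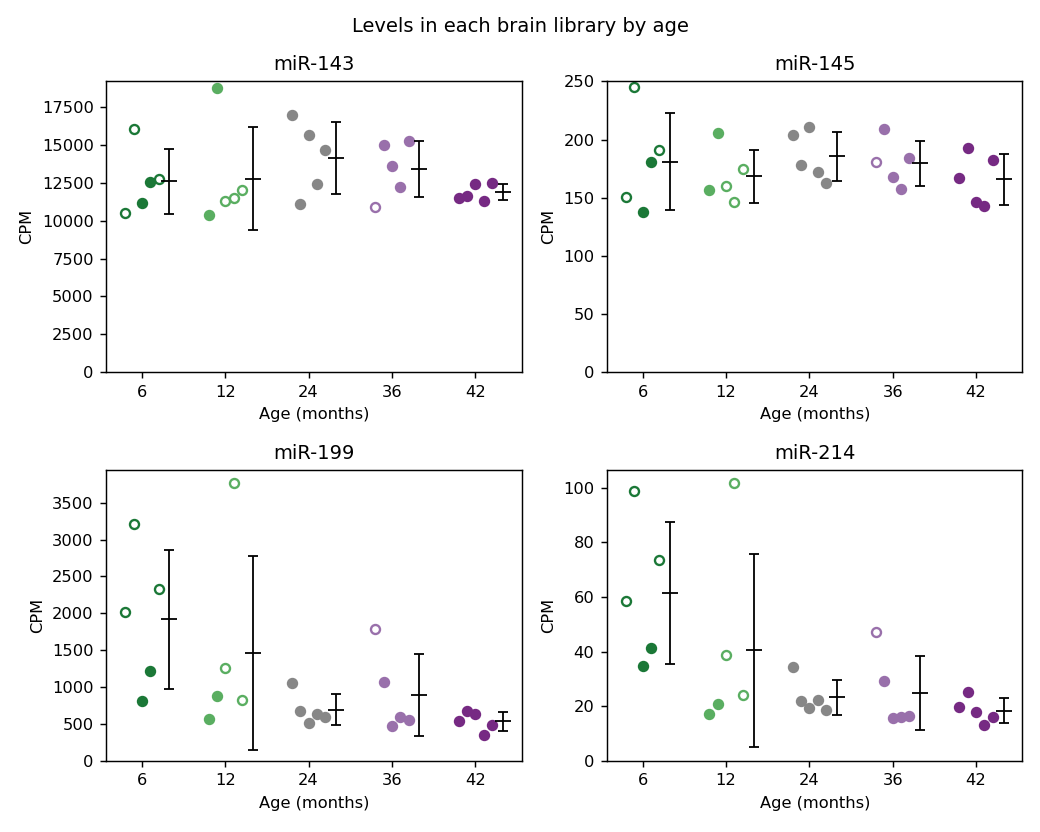
Each point is 1 library, plotted as CPM against age in months, and the bars are the mean and SD of 5 libraries. Open points are the 7 libraries rich in epithelial miRNAs. miR-143 and miR-145 stay in 1 range at all ages, while miR-199 and miR-214 average 1919 and 61.4 CPM at 6 months and 537 and 18.4 CPM at 42 months.

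The fitted changes put numbers on this difference between the pairs, as a description. In the linear fit on age, the slope was -0.53 log2 units per year for miR-199 (SE 0.13) and -0.51 for miR-214 (SE 0.11), against -0.01 for miR-143 (SE 0.04) and -0.01 for miR-145 (SE 0.04). Of the 197 tested miRNAs, 18 had a lower slope than miR-199, and only 11 had a slope nearer to 0 than miR-143. With edgeR's quasi-likelihood test at a Benjamini-Hochberg adjusted p under 0.05, 2 of the 4 members were called lower with age, miR-199 and miR-214, where 13.7% of all tested miRNAs were. The rule rests on this contrast, so nothing is read from that count.

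Set against 6 months, miR-199 was lower by a log2 change of -1.47 (SE 0.47) at 24 months and -1.84 (SE 0.47) at 42 months, and miR-214 by -1.40 (SE 0.43) and -1.74 (SE 0.44). The comparisons share the 6-month libraries. All 6 miRNAs of the epithelial miR-200 family and all 3 skin miRNAs on the lists used here were also called lower at both ages. Both red blood cell miRNAs, miR-144 and miR-451, were called lower at 24, 36 and 42 months and in the trend. Of 6 muscle miRNAs, 1 was called lower at 24 months, 2 at 42 months and 3 in the trend. With the summed levels of the miR-200 family and of the skin list as covariates, miR-199 changed by -0.14 (SE 0.41) at 24 months and -0.45 (SE 0.42) at 42 months. For miR-214 the changes were then -0.15 (SE 0.36) and -0.45 (SE 0.36), and none of these was called. In that fit 7 of 197 tested miRNAs were called at 24 months and 22 at 42 months. Without the covariates miR-199 and miR-214, and so 2 of 4 members, were called lower at 24 months, where 18.3% of all tested miRNAs were, and at 42 months, where 21.3% were. At 24 months, the only age that can be set against 6 months without a named transgene in either group, miR-214 was the 1 member of 4 whose libraries did not overlap with those of 6 months (17.8% of all tested miRNAs). At 42 months miR-199 and miR-214 were both apart (26.9% of all). The 24-month calls of both ended when any of 4 libraries was left out (replicates 2 and 5 of 6 months, replicates 3 and 5 of 24 months), where the changes lay between -1.41 and -1.16.

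The 12- and 36-month values of this pair were less even. At 36 months the change was -1.10 (SE 0.47) for miR-199 and -1.31 (SE 0.43) for miR-214, and 1 of 4 members, miR-214, was called lower, where 7.61% of all tested miRNAs were. That call ended without any 1 of 13 of the libraries, where the change lay between -1.37 and -1.06. Without 36-month replicate 1 the change of miR-199 was -1.51 and it was called as well, as it was without 12-month replicate 4 at -1.10. At 12 months it was -0.40 (SE 0.46) and -0.60 (SE 0.43), and 0 of 4 members were called by edgeR, 0 at an unadjusted p under 0.05 and 0 by DESeq2, where edgeR called 14.2% of all tested miRNAs. Without 12-month replicate 4 the 12-month changes were -1.13 for miR-199 and -1.29 for miR-214, and both were called. miR-143 and miR-145 stayed between -0.12 and 0.17 at all 4 ages, each with an SE of 0.14 or 0.15, and were called at none.

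The contrast between the pairs was taken within each library, as the mean log2 CPM of miR-199 and miR-214 minus that of miR-143 and miR-145, which does not depend on how a library is scaled. Its mean was -2.24 ± 0.52 for fish of 6 months and -2.92 ± 1.14 for those of 12 months (SD, n = 5 each). The older fish had means of -3.70 ± 0.34 (24 months), -3.54 ± 0.78 (36 months) and -3.84 ± 0.29 (42 months). The 6-month libraries ran from -2.88 to -1.82 and those of 24 months from -4.18 to -3.29, so that these ages did not overlap, nor did 42 and 6 months. The 12-month libraries spread from -3.86 to -1.07 and covered the whole 6-month range. At 42 months miR-199 and miR-214 stood at 0.331 of their 6-month level relative to miR-143 and miR-145, and at 24 months at 0.365. Without the 7 libraries rich in epithelial miRNAs, described below, the difference from 6 months was -1.03 at 42 months in place of -1.60. At 24 months it was -0.88 in place of -1.45, and the part of those libraries was not tested. In whole brain a smaller number of cells that make a miRNA and less of it per cell cannot be told apart.

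**Figure D2:**
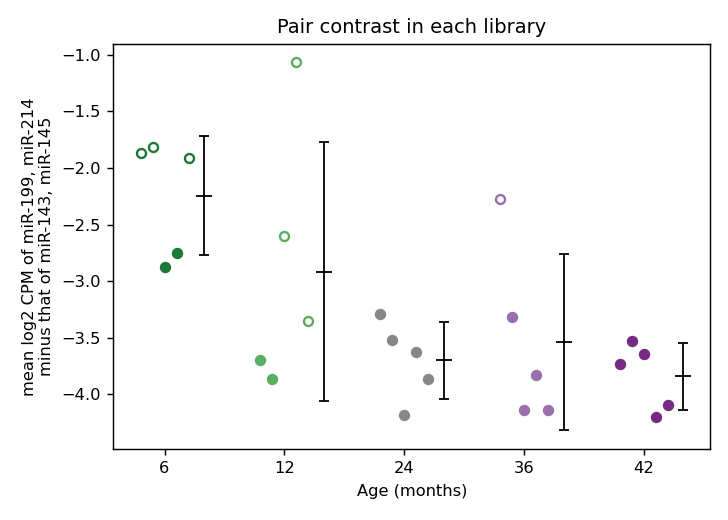
The pair contrast, on a log2 scale, is plotted for each library against age in months, with the mean and SD of 5 libraries beside it and open points for the 7 libraries rich in epithelial miRNAs. The 24- and 42-month libraries lie below all 6-month libraries, and replicate 4 of 12 months is the highest at -1.07.

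Inside each pair the ratio of the members varied less between libraries of an age than their levels did, when pooled over the 5 ages. For miR-143 and miR-145 the difference was small and did not hold at each age. At 42 months the SD of their log2 ratio was 0.19, while the SD of miR-143 was 4.46% of its mean CPM. The count of miR-143 was 73.9 ± 8.77 times that of miR-145 (SD, n = 25), and the age means ran from 70.6 at 6 months to 76.4 at 24 months, less than the spread of libraries within an age. The count of miR-199 was 32.1 ± 4.29 times that of miR-214. On the log2 scale the latter ratio was highest in fish of 12 months (5.16 ± 0.16) and 36 months (5.13 ± 0.13). It was 4.91 ± 0.21 in those of 6 months, 4.90 ± 0.11 in those of 24 months and 4.86 ± 0.17 in those of 42 months. The highest and lowest of these age means lay further apart than the within-age SD, a difference that was not tested. The within-age SD was 0.73 for the log2 level of miR-199 and 0.66 for that of miR-214, but 0.16 for their log2 ratio. For miR-143 and miR-145 it was 0.24 and 0.21, and 0.18 for their ratio, beside a median of 0.25 over the levels of all tested miRNAs.

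Of the hairpin copies, mir-199-3 changed less with age than the other 2 of miR-199, a difference that was not tested. The 2 copies of miR-143 held equal counts, copy 1 taking between 49.8% and 50.5% of the sum in every library. Copies 1 and 2 of miR-199 were also alike, at 822 ± 416 and 823 ± 416 CPM at 6 months and 205 ± 53.1 and 204 ± 51.2 CPM at 42 months (SD, n = 5 each). The hairpin mir-199-3 was lower, at 274 ± 111 CPM at 6 and 128 ± 24.3 CPM at 42 months. With each copy fitted by itself, the log2 change from 6 to 42 months was -2.03 (SE 0.51) for mir-199-1 and -2.03 (SE 0.51) for mir-199-2. It was -1.12 (SE 0.31) for mir-199-3. Entries as alike as the copies of miR-143, or as mir-199-1 and mir-199-2, cannot be taken as separate measurements. How reads that match several copies were counted is not stated in the labels.

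The share of mir-199-3 in the miR-199 count was higher in all libraries of 24 and 42 months than in any of 6 months, but not in all of 12 and 36 months. It was 13.4%, 13.2%, 17.4%, 16.4% and 14.4% at 6 months. At 24 months it was 20.6%, 22.3%, 25.1%, 22.2% and 22.4%, and at 42 months 21.8%, 23.0%, 23.0%, 26.2% and 26.5%. Both of these older ages lay above the 6-month range. At 12 months it was 23.9%, 22.6%, 21.3%, 13.7% and 23.1%, and at 36 months 14.5%, 18.4%, 28.5%, 24.6% and 27.3%. Replicate 4 of 12 months and replicate 1 of 36 months lay inside the 6-month range, and they were the libraries with the most miR-199 of their age.

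**Figure D3:**
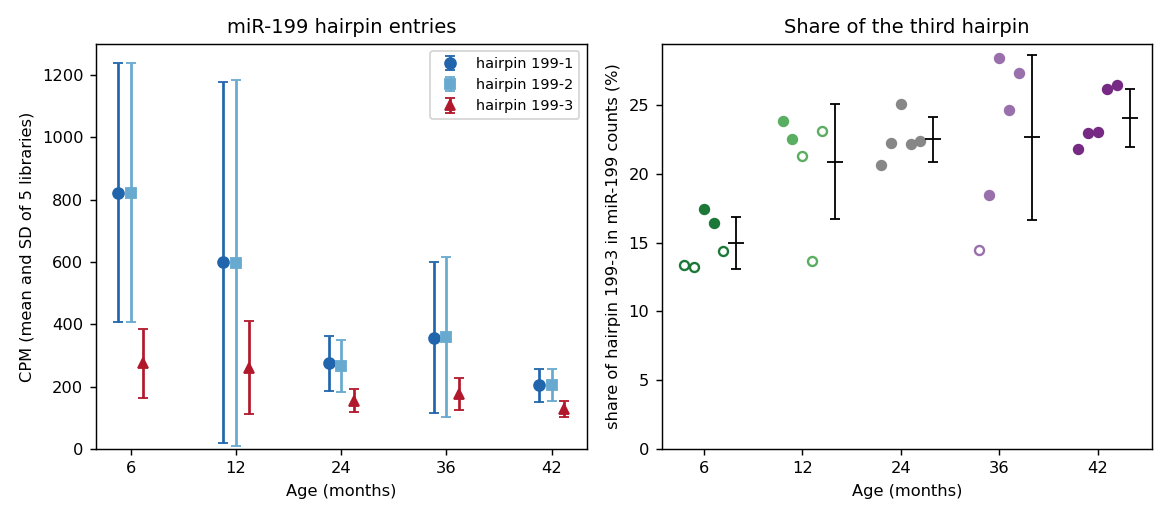
Left, CPM of the 3 miR-199 hairpin entries by age in months, as mean and SD of 5 libraries. Right, the percentage of the miR-199 count in hairpin mir-199-3 in each library, with the mean and SD, which is at most 17.4% at 6 months and averages 24.1% at 42 months, and open points for libraries rich in epithelial miRNAs.

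How libraries of the same age varied together was not used in choosing the members, and was tested. Each age's mean was subtracted from the log2 CPM, and libraries were permuted within age 100000 times, two-sided, with Benjamini-Hochberg adjustment over a family of 26 relations, each over 25 libraries. miR-199 and miR-214 moved together almost exactly, with a Pearson r of 0.978 (permutation p 1e-05, the smallest these permutations can give, adjusted p 0.00026). Spearman's rho was 0.962 (p 1e-05, adjusted p 0.00026), and r was 0.960 without the 2 libraries farthest from the median. miR-143 and miR-145 also moved together, with r = 0.679 (permutation p 0.00063, adjusted p 0.00328) and rho = 0.656 (permutation p 0.00108, adjusted p 0.00702). There r was 0.523 without 6-month replicate 2 and 12-month replicate 2.

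Across the pairs, r was lower over the 25 libraries and no relation passed the test. The r of miR-143 was 0.03 with miR-199 and -0.04 with miR-214, with rho at 0.10 and 0.05 (adjusted permutation p 0.905 for both r, 0.731 and 0.869 for rho). The r of miR-145 was 0.27 with miR-199 and 0.25 with miR-214, with rho at 0.30 and 0.28 (adjusted permutation p 0.405 and 0.428 for r, 0.314 and 0.330 for rho). Whether r differs between relations was not tested. All levels of a library share its total count and scaling factor, which bears on every such relation.

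**Figure D4:**
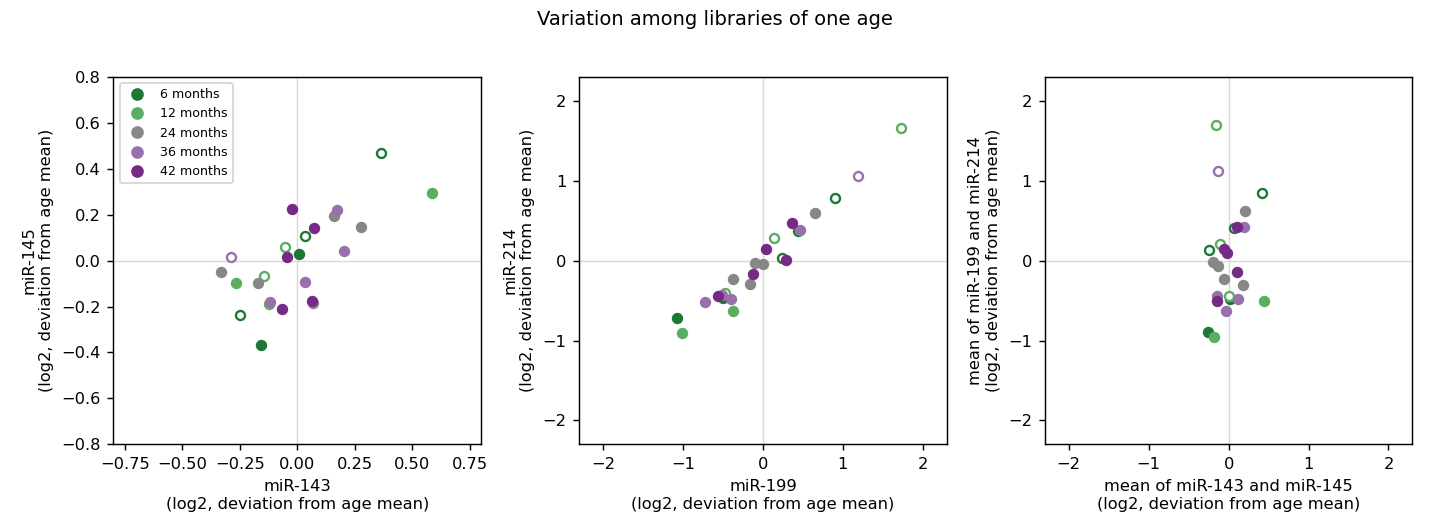
Each point is 1 library, as its log2 deviation from the mean of its age, coloured by age, with open points for libraries rich in epithelial miRNAs. Over all 25 libraries miR-199 and miR-214 lie close to a line (r = 0.978), and miR-143 and miR-145 less closely (r = 0.679). The means of the pairs show little relation to each other over these libraries.

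The members were next set against miRNAs of other cells inside an age. For miR-143 and miR-145, only the relation of miR-145 with the endothelial miRNAs passed over the 25 libraries. miR-145 moved with the summed endothelial miR-126a and miR-126b, miRNAs of the cells that line vessels, at r = 0.761 (permutation p 2e-05, adjusted p 0.00026) and rho = 0.790 (permutation p 2e-05, adjusted p 0.00026), and r was 0.769 without the 2 farthest libraries. miR-143 had r = 0.517 with them, which missed the threshold (permutation p 0.0247, adjusted p 0.0643), with rho = 0.429 (adjusted permutation p 0.128). For miR-199 and miR-214 r was 0.193 and 0.178 (adjusted permutation p 0.537 for each), with rho at 0.322 and 0.270 (adjusted permutation p 0.264 and 0.330). Between miR-143 and the miR-200 family r was -0.488 (adjusted permutation p 0.0715). Left out singly, 4 libraries let miR-143 pass with the endothelial miRNAs and 1 with the miR-200 family. With the red blood cell miRNAs r was 0.450 for miR-199 and 0.445 for miR-214 (adjusted permutation p 0.0953 for both). Both passed without 36-month replicate 1.

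miR-199 and miR-214 moved with the miRNAs of skin, epithelia and muscle over all 25 libraries. Without the 7 libraries rich in epithelial miRNAs none of these relations passed by r. By rho, that of miR-199 with muscle still passed (0.626, adjusted permutation p 0.0397), and the others did not. Those 7 were picked for a high skin or miR-200 sum, so leaving them out narrows the range of these sums. It also leaves only 18 libraries, and the lower r cannot be read as the absence of a relation. With the sum of miR-203a, miR-203b and miR-205, known from skin, r was 0.682 for miR-199 and 0.728 for miR-214 (adjusted permutation p 0.00328 and 0.00147), with rho at 0.649 and 0.716 (adjusted permutation p 0.00801 and 0.00381). With the miR-200 family, r was 0.666 and 0.668 (adjusted permutation p 0.0138 and 0.0133), with rho at 0.609 and 0.651 (adjusted permutation p 0.0213 and 0.0153). With 6 muscle miRNAs, r was 0.632 and 0.618 (adjusted permutation p 0.0126 for both), with rho at 0.594 and 0.556 (adjusted permutation p 0.0128 and 0.0195). Without 12-month replicate 4 and 36-month replicate 1, r was 0.581 and 0.654 for skin, 0.441 and 0.440 for the miR-200 family and 0.707 and 0.691 for muscle. The relations of both with the miR-200 family did not pass without 12-month replicate 4 or without 36-month replicate 1, and those with muscle not without 12-month replicate 4 (highest adjusted permutation p 0.0698, at r = 0.576).

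**Figure D5:**
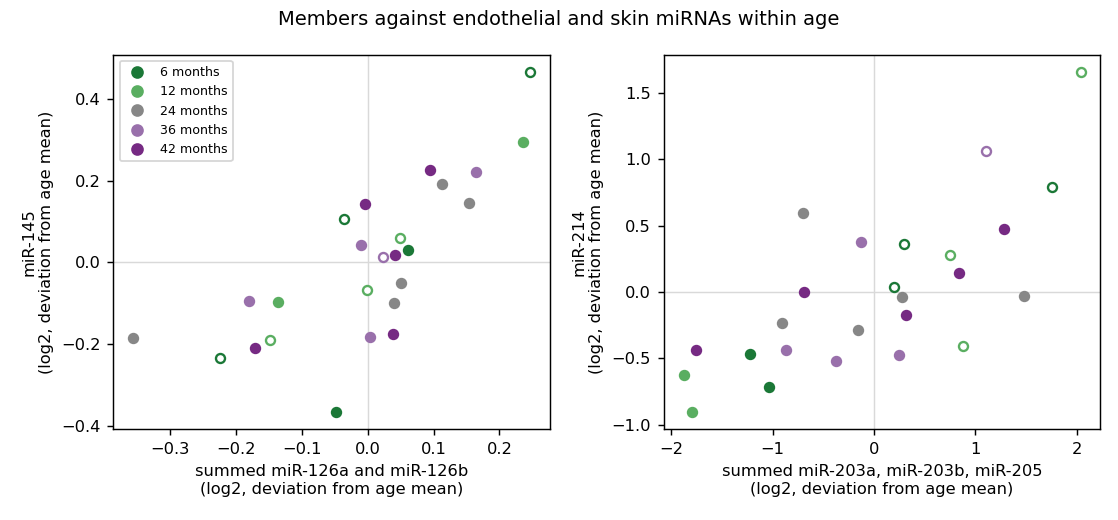
Each point is 1 library, as log2 deviations from the mean of its age, coloured by age, with open points for libraries rich in epithelial miRNAs. Left, miR-145 against the summed endothelial miRNAs (r = 0.761), and right, miR-214 against the summed skin miRNAs (r = 0.728).

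The epithelial and skin miRNAs were highest in some of the younger libraries. In the trend all 3 skin miRNAs and 0 of 6 of the miR-200 family were called lower by edgeR, where 13.7% of all tested miRNAs were. Of the miR-200 family 0 of 6 had an unadjusted p under 0.05, though all 6 slopes were below 0, with a median of -0.62 per year. None of either list was called at 12 months, where 14.2% of all were, or at 36 months, where 31 of 197 were. All 6 members of the miR-200 family were tested, and their sum ran from 472 to 9033 CPM at 6 months, 141 to 2900 at 12, 90.1 to 348 at 24, 135 to 8123 at 36 and 71.9 to 462 at 42 months. The sum of all 3 skin miRNAs ran from 488 to 3861, 343 to 5185, 124 to 648, 282 to 1109 and 57.1 to 471 CPM at the same ages. In 7 libraries either sum was above 2000 CPM, a limit set after these data were seen. Of the fish of 6 months they were replicates 1, 2 and 5, of those of 12 months replicates 3, 4 and 5, and of those of 36 months replicate 1. Among them were the highest libraries of miR-199 and miR-214 at 6, 12 and 36 months.

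Without those 7 libraries, which leaves 2 libraries at 6 and 2 at 12 months, the slope was -0.22 per year (SE 0.09) for miR-199 and -0.24 (SE 0.09) for miR-214, and 0 of 4 members were called by edgeR, with 2 at an unadjusted p under 0.05, where 5.53% of all tested miRNAs were called. From 6 to 42 months the log2 change was then -0.90 (SE 0.34) for miR-199 and -1.02 (SE 0.30) for miR-214, and 1 of 4 members, miR-214, was called (12.1% of all). With the log2 sums of both lists as covariates in all 25 libraries, the slopes were -0.16 (SE 0.10) and -0.19 (SE 0.10), with 0 of 4 members called by edgeR in the trend or at 42 months and 0 at an unadjusted p under 0.05 (9.64% and 11.2% of all called). At 24 against 6 months miR-199 changed by -0.56 (SE 0.34) and miR-214 by -0.72 (SE 0.31) without the 7 libraries, and neither was called. In these settings the slopes of miR-143 and miR-145 lay between -0.06 and 0.00. With the covariates their changes from 6 to 42 months were -0.34 (SE 0.17) and -0.13 (SE 0.17). There miR-199 and miR-214 changed by -0.45 (SE 0.42) and -0.45 (SE 0.36), and whether the pairs differed was not tested. Without the 7 libraries the changes of miR-143 and miR-145 were 0.02 (SE 0.19) and 0.08 (SE 0.18).

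In the remaining 18 libraries some of the relations within an age passed as before and others did not, with fewer libraries and a narrower range of the epithelial sums. miR-199 and miR-214 still moved together, at r = 0.931 (permutation p 9e-05, adjusted p 0.00234). Their r with the skin miRNAs was then 0.237 and 0.324 (adjusted permutation p 0.507 and 0.401). With the miR-200 family it was 0.02 and 0.08 (adjusted permutation p 0.968 and 0.877), and with the muscle miRNAs 0.533 and 0.480 (adjusted permutation p 0.1075 and 0.173). By rho, miR-199 with muscle passed, at 0.626 (adjusted permutation p 0.0397), and miR-214 with muscle did not, at 0.554 (adjusted permutation p 0.0763). With the endothelial miRNAs r was 0.681 for miR-199 and 0.693 for miR-214 (adjusted permutation p 0.0592 and 0.0473). There rho was 0.763 and 0.746, and both passed by it (adjusted permutation p 0.0197 and 0.00399). Across the pairs r was higher than over all 25 libraries. For miR-145 it was 0.603 with miR-199 (adjusted permutation p 0.0834) and 0.651 with miR-214 (adjusted permutation p 0.0473). For miR-143 it was 0.439 with miR-199 and 0.339 with miR-214 (adjusted permutation p 0.270 for both). miR-145 kept r = 0.727 with the endothelial miRNAs (adjusted permutation p 0.0196). The relation of miR-143 and miR-145 was 0.616 and no longer passed by r (adjusted permutation p 0.0799). By rho it did pass, at 0.672 (adjusted permutation p 0.0369). The other relations named for these 18 libraries passed or did not pass alike by r and by rho.

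By the same measure, the 5 miRNAs most like each pair were taken out of 171 with a mean of at least 10 CPM, as a description over 25 libraries. Most like miR-143 and miR-145 were miR-150 (r = 0.719), a lymphocyte miRNA, the endothelial miR-126b (0.692) and miR-126a (0.635), miR-30c (0.530) and the muscle miRNA miR-1 (0.476). Most like miR-199 and miR-214 were miR-27a (0.893), miR-23a (0.831), miR-2184 (0.823), miR-27c (0.811) and the muscle miRNA miR-499 (0.725). Both sets share no miRNA. Each set of 5 held 1 miRNA with a called trend with age, where 21.3% of all tested miRNAs were called, so nothing is read from these counts. In the first it was miR-30c, with a slope of -0.13 (SE 0.03, edgeR adjusted p 0.000716), and in the second miR-27a, with a slope of -0.26 (SE 0.09, edgeR adjusted p 0.0361).

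Most other miRNAs linked to vessel wall, fibroblasts or matrix had slopes above 0, and the share called was near that of all tested miRNAs. The list was drawn up with earlier results of these data known, so its slopes and counts are a description. A slope below 0 was fitted for 3 of the 20 on the list, beside 103 of all 197 tested. The change at 42 against 6 months was below 0 for 3 of the 20, and its median was 0.16 over the list and -0.02 over all tested. Of the 20, all tested, 2 were called higher in the trend, the collagen repressors miR-29a (0.22 per year) and miR-29b (0.45), and 2 lower, miR-27a and the cartilage miRNA miR-455 (-0.23, SE 0.07, edgeR adjusted p 0.0243), where 21.3% of all tested miRNAs were called. The median slope was 0.05 over the list and -0.01 over all tested. At 42 against 6 months 5 of the 20 were called higher and 1 lower, where 35.5% of all were called. The higher ones were miR-10b, miR-27b, miR-29a, miR-29b and miR-222b, and the lower one was miR-455 (-0.85, SE 0.27, edgeR adjusted p 0.0196). The endothelial miR-126a and miR-126b had slopes of 0.03 (SE 0.03) and 0.00 (SE 0.03) and were not called.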

How the data were processed

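The authors deposited 1 table of raw read counts per miRNA hairpin and library, checked to hold whole numbers. Tools in the submitters' processing notes are SAMtools 1.3.1-9, BWA 0.7.12-r1039, Trimmomatic 0.36 and CASAVA 1.8.4. Libraries were made with the Illumina TruSeq small RNA kit, per the labels' protocols. Genome build, miRNA annotation, counter and treatment of multiply matching reads are stated in no label or header used here. No count column was left unused.

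Copies were summed by name. The tests ran in R 4.3.3 with edgeR 4.0.16 on all 25 libraries: filterByExpr (count minimum 10, total minimum 15), TMM factors, robust quasi-likelihood fit and F test, Benjamini-Hochberg over 197 miRNAs, called at an adjusted p under 0.05. Standard errors are approximated from F. DESeq2 1.42.0 was an alternative. Log2 CPM used a prior count of 2. List sums are CPM by library totals. The fit and the permutation test were tested on simulated data. Libraries were grouped by age alone, replicates are numbered in order of deposit, and the labels name no batch. Counting error is small beside the spread of the members' levels between libraries. It is not small beside the within-age SD of 0.16 of the log2 ratio of miR-199 to miR-214. At the lowest miR-214 count, 86, it is 10.8% of the count. All 4 members are named, with the 5 miRNAs most like each pair and called members of the lists. The members and lists were chosen with earlier results of these data known.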

Additional observations from a re-analysis of the deposited data

Results flagged for a closer look

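Within an age of 5 libraries, a library was singled out when its gap to the nearest other was above 0.71 of the range, which chance gives for about 1 group in 20. Of 55 groups examined, 11 held such a library, many of them the same libraries seen in related measures. Replicate 4 of 12 months stood highest in miR-199 (3767 CPM), miR-214 (101.7 CPM), hairpin mir-199-1 (1622 CPM) and hairpin mir-199-2 (1630.3 CPM), and lowest in the share of hairpin mir-199-3 (13.7%). It also held the highest sum of skin miRNAs of all libraries, 5185 CPM, and its part in these values was not tested.

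Replicate 1 of 24 months stood highest in miR-199 (1054 CPM), miR-214 (34.2 CPM), hairpin mir-199-1 (428 CPM) and hairpin mir-199-3 (218 CPM). Its sums of the miR-200 family and of the skin miRNAs were low, at 97.3 and 144 CPM. Replicate 2 of 12 months stood highest in miR-143 (18768 CPM). Replicate 3 of 6 months had the highest log2 ratio of miR-143 to miR-145 of its age (6.35).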

How the results depend on the processing

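miR-199 and miR-214 were lower than at 6 months, and had a slope below 0, in every setting run, the 3 scalings included. miR-143 and miR-145 were called in none, and the signs of their small changes varied with the scaling. Library totals in place of TMM moved the median log2 change of all miRNAs at 24 against 6 months from 0.04 to -0.14, and at 42 from -0.02 to -0.10, and miR-199 then changed by -1.65 at 24 months. The slopes of miR-199 and miR-214 lost their call when all fish of 42 months (-0.50 and -0.55) or all of 6 months (-0.45 and -0.39) were left out, without the 7 epithelial-rich libraries and with the covariates. In a fit of the 10 libraries alone, miR-214 at 36 months was not called (-1.30).

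Over all miRNAs, 42 were called in the trend, 28, 63, 31 and 70 at 12, 24, 36 and 42 against 6 months. The trend count was 65 with each hairpin copy as its own row, 11 without fish of 42 months, 20 without those of 6 months, 11 without the epithelial-rich libraries and 19 with the covariates. At 12 months it was 49 with DESeq2, 10 without the epithelial-rich libraries and 14 with the covariates. The 24-month count was 9 and 7 in the last 2 settings, and the 42-month count 24 and 22. Leaving out 1 library gave 30 to 60 in the trend, 19 to 66, 24 to 66, 23 to 47 and 46 to 80 at 12, 24, 36 and 42 months.

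The pair contrast changed from -1.45 to -0.88 at 24 months and from -1.60 to -1.03 at 42 months without the epithelial-rich libraries. Prior counts of 0.5 or 5 and the most counted copy moved it by less than the spread of libraries. Leaving out 1 library gave -1.13 to -0.44 at 12, -1.61 to -1.33 at 24, -1.61 to -1.14 at 36 and -1.76 to -1.49 at 42 months.

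Of 26 relations within age 9 passed by r, and 4 without the epithelial-rich libraries. Without those libraries r was 0.616 for miR-143 with miR-145, not passing by r though passing by rho, and 0.651 for miR-145 with miR-214, passing. Leaving out 1 library gave 5 to 10 by r, the lowest without 12-month replicate 4. With library totals miR-143 passed with the endothelial sum (r = 0.600, adjusted permutation p 0.0182). In that setting miR-145 passed with the red blood cell sum (r = 0.475, adjusted permutation p 0.0260). Where calls ended, the cause was not tested. Settings that left out libraries had fewer of them in the fit, while the fit with the covariates kept all 25. Both covariate sums themselves differed with age, however. The mean miR-200 sum was 3956 CPM at 6 and 190 CPM at 42 months, and the mean skin sum 1523 and 247 CPM. Age and the covariates were therefore not fully separable in that fit. No paired analysis was run, since the labels link no library to a library of another age.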
